A study of Drosophila melanogaster with 6 samples.

Results

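Neuropeptides are signaling molecules that neurons cut out of larger precursor proteins. A prohormone convertase cleaves the precursor at pairs of basic residues, a carboxypeptidase trims those residues off, and in many peptides a C-terminal glycine is then turned into an amide, which receptors usually require. In flies this amidation is carried out by separate enzymes, a monooxygenase (Phm) followed by a lyase (Pal1 or Pal2), and the finished peptides leave the cell from dense core vesicles, often beside a small transmitter such as dopamine. The 36 genes described here, of 17737 in the tables, are 31 neuropeptide and peptide hormone precursors and 5 enzymes (*amon*, *svr*, *Phm*, *Pal1* and *Pal2*). They were chosen by gene symbol as candidates for co-transmission in dopamine neurons, and all 36 symbols were found in the count tables.

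The study sequenced RNA of PPL1-γ1pedc dopamine neurons, which innervate the γ1 peduncle region of the mushroom body, the olfactory memory center of the fly. There were 3 control and 3 Stromalin knockdown (*Stromalin* KD) libraries, each made from 25 GFP-positive neurons picked by hand from larval brains at 120 h after egg laying. Control larvae carried the ∆TH-D'-GAL4 driver with UAS-mCD8:GFP and UAS-dicer2, and *Stromalin* KD larvae carried these and a UAS-Stromalin RNAi transgene against the cohesin subunit Stromalin, so that both groups shared the driver, the GFP and the dicer2. The RNAi is restricted to cells in which the driver is active, each library pools neurons of many brains, and each was collected on a day of its own.

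The control libraries held 7790921 to 9625056 counts in genes, and those of *Stromalin* KD held 8638734 to 9624935. At this depth 3 counts, the limit that a count of 0 allows, correspond to 0.312 to 0.385 CPM (counts scaled to a common library total), counting error only. The targeted gene, *SA*, had 0, 0 and 1372 counts in control 1 to 3 and 3, 0 and 0 in *Stromalin* KD 1 to 3, so its own counts were a weak check of the labels. The dopamine markers *ple*, *Ddc*, *Vmat* and *DAT* were found in every library, where found means at least 10 counts. So were the pan-neuronal markers *elav*, *nSyb*, *brp*, *Syt1* and *cpx*. Of 5 glial markers, *repo* and *alrm* had 0 counts throughout, while *nrv2* counted 3824 in control 2, 1187 in *Stromalin* KD 1 and 728 in *Stromalin* KD 2, *Gs2* 430 in *Stromalin* KD 1 and *moody* 62 in control 3. Of the genes of other transmitter types, *ChAT*, *Gad1*, *Tdc2* and *Trh* were at 0 in every library. *VGlut* had 7 counts and *VAChT* 486 in *Stromalin* KD 3, *Tbh* had 617 in control 3 and *SerT* 786 in *Stromalin* KD 1. The most widespread of these genes was *VGAT*, which encodes a GABA transporter and was found in 4 libraries. It reached 1762, 500 and 1737 across the *Stromalin* KD replicates, while control 1 held 112 and the remaining controls none. Of 4 genes listed as Kenyon cell markers, *Dop1R1* and *prt* were found in all 6 libraries, *toy* in 5 and *ey* in control 1 alone (1107 counts). Of 5 neuroblast markers only *grh* had counts, and it was found in 3 libraries. Fat body and blood markers were found in control 2 (6 of 8 genes), *Stromalin* KD 2 (2 genes) and *Stromalin* KD 3 (2 genes) and in no other library, and the summed markers ranged from 0 to 10970 counts in the control libraries and from 3 to 6005 in the others. Detection was patchy in all libraries: 6922 genes had any count, 1001 of them (14.5%) were found in all 6 libraries, and 10815 genes (61.0%) had no count at all.

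Precursor RNA in these libraries came mostly from 1 gene, *Hugin* (*Hug*), while 4 of the 5 enzymes that process precursors were found in every library. Of the 31 precursors, 23 (74.2%) had 0 counts in all 6 libraries, beside 61.0% of all genes. Another 2 had a trace, *AstC* with 2 counts and *Capa* with 1 count, both in *Stromalin* KD 2. The remaining 6 (*Hug*, *Nplp1*, *Proc*, *Ms*, *ITP* and *CCAP*) were found in at least 1 library. The number of precursors found was 2, 4 and 2 in control 1 to 3 and 2, 3 and 0 in *Stromalin* KD 1 to 3. Enzymes found numbered 5, 5 and 4 in control and 4 in each *Stromalin* KD library. Thus *amon*, *svr*, *Phm* and *Pal2* were the members found in all 6 libraries, and no precursor was.

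**Figure D1:**
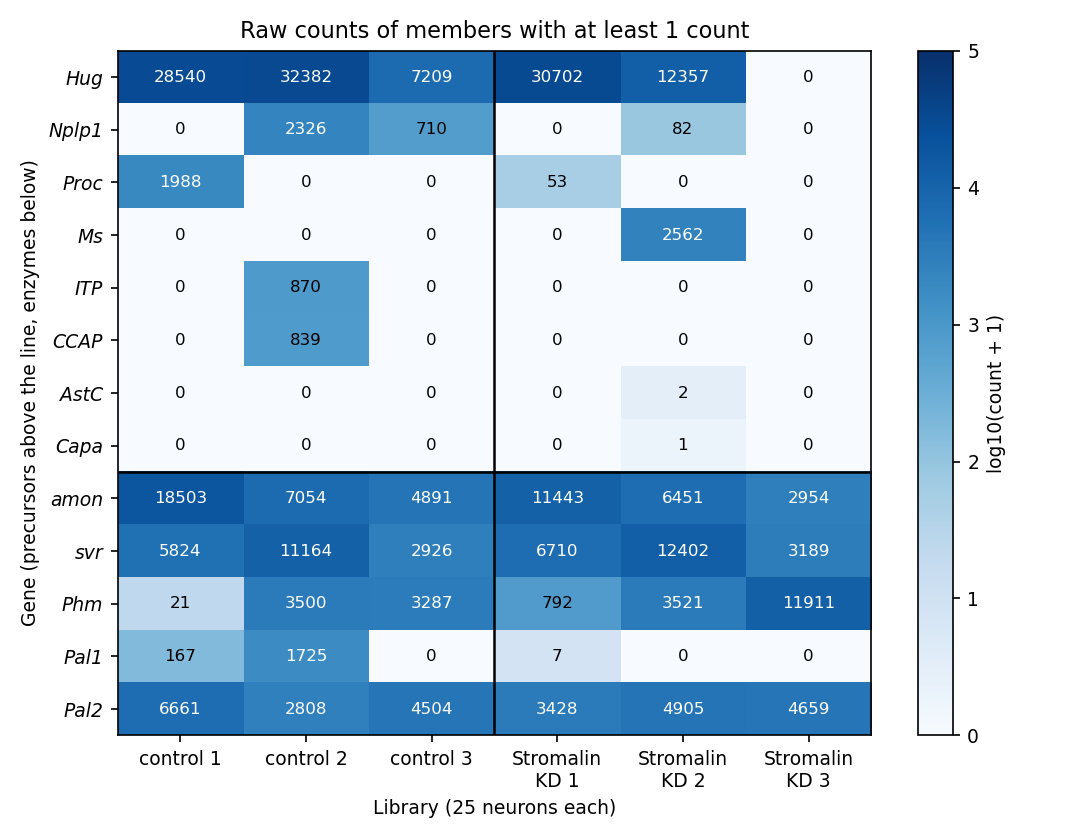
Raw counts in each library (columns) of the 13 members with at least 1 count (rows), colored by log10(count + 1). *Hug* holds 7209 to 32382 counts in 5 libraries and 0 in *Stromalin* KD 3, the other precursors appear in 1 to 3 libraries each, and 4 of the 5 enzymes are present throughout.

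*Hug* encodes the precursor of hugin-derived pyrokinin peptides, relatives of vertebrate neuromedin U that act on feeding and locomotion in the larva. The gene lies on the plus strand of 3R:12526188-12529076 (BDGP6), and none of its 1033 exonic bases is shared with another annotated gene. It had 28540, 32382 and 7209 counts in control 1 to 3 and 30702, 12357 and 0 counts in *Stromalin* KD 1 to 3. *Stromalin* KD 3 therefore stood apart from the other 5 libraries: its 0 allows up to 0.347 CPM, while the lowest of the others was 7209 counts in control 3. *Hug* made up 82.4% to 99.8% of precursor counts in the 5 libraries that had any.

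On the TPM scale, which accounts for gene length, *Hug* was at 8942, 9929 and 2436 in the control libraries and 8974, 3816 and 0 in *Stromalin* KD. These levels placed it 9th, 8th and 35th among all genes of control 1 to 3 and 12th and 14th in *Stromalin* KD 1 and 2. For comparison on the same scale, *Vmat*, the vesicular monoamine transporter that loads dopamine, was at 3930, 7779 and 12458 TPM in control and 4020, 11044 and 11101 TPM in *Stromalin* KD. The ratio of *Hug* to *Vmat* in TPM was 2.28, 1.28 and 0.196 in the control libraries and 2.23, 0.346 and 0 in *Stromalin* KD, so in control 1, control 2 and *Stromalin* KD 1 the peptide precursor was above the transporter. Because neurons were pooled, fewer *Hug*-positive cells and less *Hug* RNA per cell cannot be told apart. Whether all *Hug* RNA came from the picked neurons was not tested.

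The absence of *Hug* from *Stromalin* KD 3 was shared with other genes. In that library 150 genes were at 0 that each of the other 5 held at 10 counts or more, and 9 of these, *Hug* included, had at least 1000 counts in each of the others. The count at 10 was made for *Stromalin* KD 3 alone, so it does not set that library apart. The same count at 1000 was 2, 0 and 10 genes for control 1 to 3 and 1 gene each for *Stromalin* KD 1 and 2. *Stromalin* KD 3 was also among the libraries with fat body marker counts (*Lsp1beta*, 5686 counts), and the part of either in the result was not tested. *Hug* was at 9929 TPM in control 2, with the most fat body counts, and at 3816 TPM in *Stromalin* KD 2, with 597 such counts. Where at most 3 fat body counts were seen, *Hug* was at 8942 TPM in control 1, 2436 TPM in control 3 and 8974 TPM in *Stromalin* KD 1.

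The other precursors appeared in single libraries or at levels that differed by more than an order of magnitude between libraries. *Nplp1*, precursor of the IPNamide family of neuropeptide-like peptides, counted 0, 2326 and 710 in control 1 to 3 and 0, 82 and 0 in *Stromalin* KD 1 to 3. *Proc*, which encodes the muscle-stimulating peptide proctolin (2L:7864642-7871432, minus strand), counted 1988 in control 1, 53 in *Stromalin* KD 1 and 0 in the other libraries. *Proc* had counts in 2 libraries and *Nplp1* in 3, with none in common, and a relation between these genes was not tested. *Ms*, encoding myosuppressin, an inhibitor of visceral muscle, had 2562 counts in *Stromalin* KD 2 and 0 in the other libraries. *ITP*, the antidiuretic ion transport peptide, and *CCAP*, a cardioactive peptide active at ecdysis, were found in control 2 alone, with 870 and 839 counts. In TPM the highest single values were 694 for *Ms* in *Stromalin* KD 2, 325 for *Proc* in control 1 and 273 for *Nplp1* in control 2, all below *Hug* in the same library. Control 2 thus held *Hug*, *Nplp1*, *ITP* and *CCAP*, and it was the library with the most genes found (4004) and with the most fat body marker counts.

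The 23 precursors without a count include peptides of well-known brain circuits: *sNPF*, abundant in Kenyon cells, *NPF*, the tachykinin *Tk*, *AstA*, *Mip*, *Dh31*, *Dh44*, *Crz*, the clock peptide *Pdf*, *Lk*, *SIFa*, *FMRFa*, *Dsk*, *CCHa1* and *CCHa2*. They also include *amn*, the amnesiac gene of memory, the insulin-like peptides *Ilp2*, *Ilp3*, *Ilp5* and *Ilp7*, and hormones *Eh*, *ETH* and *Akh*. Of these genes 18 share no exonic bases with another gene, while for *Lk* (93.0%) and *ETH* (90.5%) nearly all exonic bases lie opposite an antisense gene, which also had 0 counts. For each of the 23 the level was under the 3-count limit of 0.312 to 0.385 CPM in every library, which bounds counting error and not molecules lost before sequencing. In a further list of 18 precursors outside the 36, 16 were at 0 throughout, *Nplp2* had 40 counts in control 2 and *Ilp6* had 1 count in *Stromalin* KD 2.

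Among the enzymes, *amon* encodes the fly PC2 prohormone convertase and lies on the minus strand of 3R:26697697-26714159, sharing no exonic bases. It counted 18503, 7054 and 4891 in the control libraries and 11443, 6451 and 2954 in those of *Stromalin* KD, or 1501, 560 and 428 TPM against 866, 516 and 263 TPM. The ranges overlapped, with control 1 highest and *Stromalin* KD 3 lowest. *svr*, the carboxypeptidase D that removes basic residues (X:496446-509072, plus strand), had 220, 412 and 119 TPM in control and 236, 461 and 132 TPM in *Stromalin* KD. The 3 values of 1 genotype were near those of the other, and the lowest to highest ratio was 3.87-fold over all 6 libraries.

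The amidating enzymes varied least and most of all members found throughout. *Pal2*, a lyase of the second amidation step, had 936, 386 and 682 TPM in control and 449, 679 and 720 TPM in *Stromalin* KD, a coefficient of variation of 31.0% over the 6 libraries. For genes found in all 6 libraries that coefficient was 75.5% at the median, with quartiles of 57.2% and 100%. *Phm*, the copper-dependent monooxygenase of the first step, had 4.24, 692 and 716 TPM in control and 149, 701 and 2645 TPM in *Stromalin* KD, a coefficient of variation of 116% and a 624-fold range. Its lowest value was in control 1, at 21 counts, and its highest in *Stromalin* KD 3, at 11911 counts, the library without *Hug*. Consequently the TPM ratio of *Phm* to *Pal2* was 0.00453, 1.79 and 1.05 in the control libraries and 0.332, 1.03 and 3.67 in *Stromalin* KD. *Pal1*, the second lyase gene, counted 167 in control 1, 1725 in control 2, 7 in *Stromalin* KD 1 and 0 in the others, far under *Pal2* in each library except control 2, where it was at 183 TPM beside 386 TPM for *Pal2*.

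Annotated overlaps limit some of these counts, since the sources used here give no strand setting for the counting. *Pal2* shares 592 bases (25.7% of its exonic bases) with *CG30183* on the opposite strand, which had 4930 counts in control 3 and 14 to 402 counts elsewhere. *svr* shares 9.5% of its exonic bases with antisense genes that held 1 count in all, *Pal1* 4.5% and *Phm* 0.2%. *Phm*, *Pal1*, *Pal2* and *Nplp1* are among the 8 members that lie on 2R.

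**Figure D2:**
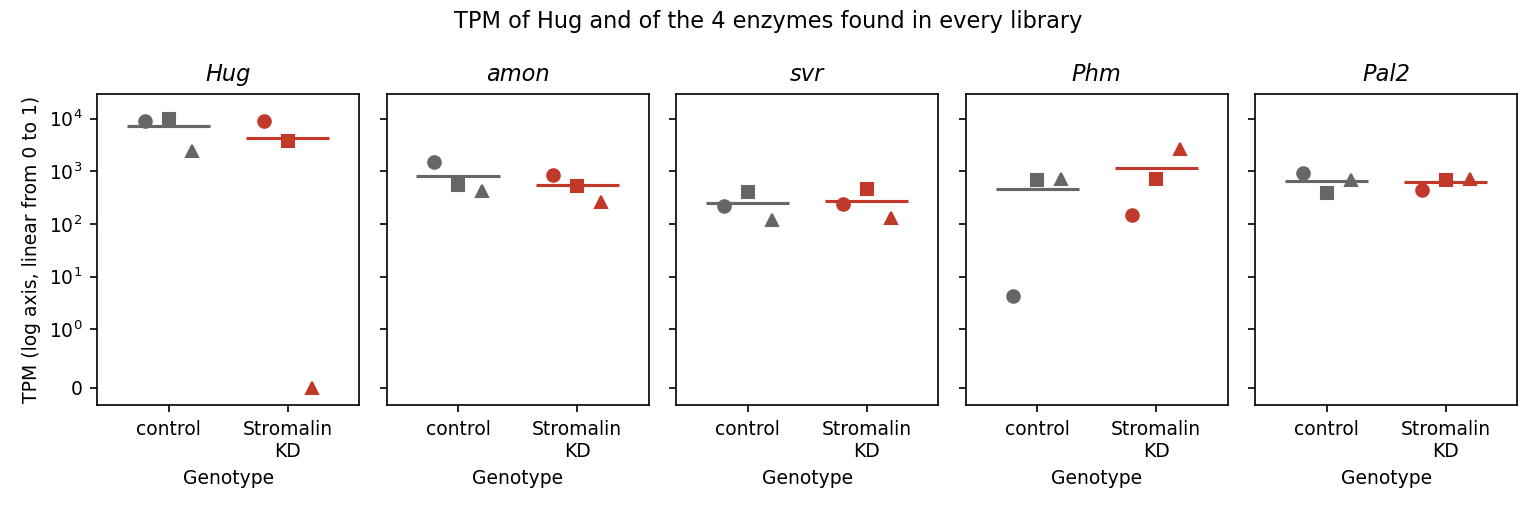
TPM (log axis, linear below 1) of *Hug* and the enzymes found in every library, with circles, squares and triangles for replicates 1, 2 and 3 of each genotype and lines for the mean of 3 libraries. The groups overlap for every gene, *Hug* is at 0 in *Stromalin* KD 3, and *Phm* spans 4.24 to 2645 TPM.

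Ordered by mean TPM, control libraries had *Hug* at 7102 ± 4071 (n = 3, SD), *amon* at 829 ± 585, *Pal2* at 668 ± 275, *Phm* at 470.5 ± 404 and *svr* at 250.2 ± 149. In *Stromalin* KD the order was *Hug* at 4263 ± 4504, *Phm* at 1165 ± 1311, *Pal2* at 616 ± 146, *amon* at 548 ± 302 and *svr* at 276 ± 168. In control only the step from *Hug* to the enzymes exceeded the spread of the libraries: each *Hug* value was above each enzyme value in TPM. In *Stromalin* KD this held for libraries 1 and 2, and in library 3 *Hug* was the lowest of these genes. The steps among *amon*, *Pal2*, *Phm* and *svr* were within the SD of the higher gene in both genotypes.

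To ask whether *Stromalin* KD altered these genes, counts were compared with edgeR's quasi-likelihood test over the 4093 genes found in 2 libraries or more. Of the 36 members, 8 met this filter. Of these 8, 0 passed an adjusted p of 0.05, where 0.0489% of all tested genes (2) did. None had an unadjusted p under 0.05, against 3.23% of tested genes (132), and in none were the groups separate in normalized CPM (counts over the library size scaled by TMM), against 6.62% (271). DESeq2, the tool of the study, called 0 of the 7 members it gave an adjusted p, against 5.46% of genes (160 of 2930). The median log2 fold change, with positive values higher in *Stromalin* KD, was -0.78 over the 8 and 0.07 over all tested genes, with 2 members higher and 6 lower, none past the test. Of the lower members, *Nplp1* and *Pal1* reached the count filter only within control, the group in which they were higher. The exact permutation test of a single gene cannot go below p = 0.1 with 3 against 3 libraries, and its values for the 8 members were 0.4 to 1.0.

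For *Hug*, mean normalized CPM was 2666 ± 1561 in control and 1553 ± 1766 in *Stromalin* KD (n = 3, SD). The log2 fold change was -0.78 (SE 0.60), with an adjusted p of 1.00. That SE understates the spread of *Hug*, because edgeR assigned all genes of a given abundance one common spread. With a robust prior, which lets an aberrant gene keep its own spread, the SE was 2.71 and the log2 fold change the same. Without *Stromalin* KD 3 the log2 fold change was -0.20, and without *Stromalin* KD 1 it was -2.17. The value therefore rested on single libraries. With 1 library left out it moved furthest without *Stromalin* KD 1 and came closest to no change without *Stromalin* KD 3.

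For *amon* the log2 fold change was -0.78 (SE 0.86), turning to 0.21 without control 1, and for *svr* 0.04 (SE 1.00). *Pal2* was at -0.33 (SE 1.19) and *Phm* at 1.27 (SE 1.35). The higher *Phm* mean came from *Stromalin* KD 3, and without that library the log2 fold change was -0.26. The 95% intervals were -2.46 to 0.91 for *amon*, -1.91 to 2.00 for *svr*, -1.38 to 3.92 for *Phm* and -2.66 to 1.99 for *Pal2*, so these libraries bound the change of each enzyme loosely. DESeq2 gave larger SEs for these enzymes, 2.17 for *amon*, 2.13 for *svr*, 2.41 for *Phm* and 2.13 for *Pal2*. The log2 fold changes of the patchy genes, -5.31 for *Nplp1* (SE 4.55), -5.52 for *Proc* (SE 4.75) and -7.82 for *Pal1* (SE 5.67), carry intervals that span 0 by a wide margin. Adjusted p values of these 7 members were 1.00 in edgeR.

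**Figure D3:**
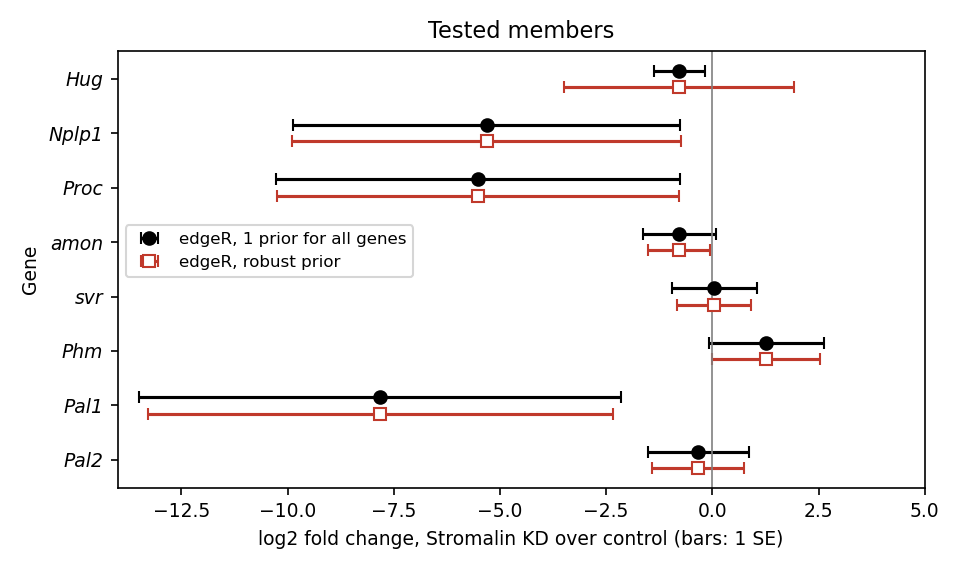
log2 fold change (*Stromalin* KD over control) of the 8 tested members, with bars of 1 SE from edgeR with 1 prior for all genes (black circles) and with a robust prior (red open squares). The robust prior widens the SE of *Hug* from 0.60 to 2.71 and leaves the other members nearly as they were.

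Other genes of peptide processing and dense core vesicles gave a setting for the enzymes. In a list of 14, 6 were found in every library: *IA-2*, a dense core vesicle membrane protein, *unc-104*, the kinesin that carries vesicle precursors, *7B2*, *Cadps*, which primes dense core vesicles for release, and the furin proteases *Fur1* and *Fur2*. The glutaminyl cyclase genes *QC* and *isoQC*, which modify peptide N termini, had 0 counts throughout. *IA-2* was the highest of the list, at 2819, 4570 and 2430 TPM in control and 3493, 3450 and 2148 TPM in *Stromalin* KD, and its log2 fold change was -0.19 (SE 0.23 in edgeR and 2.10 in DESeq2). *unc-104* was at 993 ± 691 TPM in control and 859 ± 202 in *Stromalin* KD (n = 3, SD).

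*7B2*, the chaperone that the PC2 convertase needs to mature, was at 1487, 476 and 278 TPM in control and 139, 65.6 and 89.9 TPM in *Stromalin* KD. All control libraries were above all *Stromalin* KD libraries, unlike *amon*, whose groups overlapped. The log2 fold change of *7B2* was -3.12 (SE 2.34), which did not pass edgeR (adjusted p = 1.00) or DESeq2 (adjusted p = 0.774). Without control 1 it was -1.87, and the difference between its change and that of *amon* was not tested. The TPM ratio of *amon* to *7B2* was 1.01, 1.18 and 1.54 in the control libraries and 6.25, 7.86 and 2.93 in *Stromalin* KD.

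*dimm*, the transcription factor that promotes the neurosecretory state and is known to activate *Phm*, counted 3979, 277 and 584 in control 1 to 3 and 0, 13 and 0 in *Stromalin* KD 1 to 3. The groups did not overlap, and control 1 was the highest by far. In the same libraries *Phm* was at 4.24, 692 and 716 TPM in control 1 to 3 and 149, 701 and 2645 TPM in *Stromalin* KD 1 to 3. A relation between *dimm* and *Phm* was not tested. The log2 fold change of *dimm* was -8.98 (SE 4.08), with an adjusted p of 0.809 in edgeR and 0.0338 in DESeq2, so that the call depends on the tool, and without control 1 the log2 fold change was -6.89, without *Stromalin* KD 2 -13.93. *nemy*, a cytochrome b561 linked to amidation and named here after its values were seen, had 0 counts in the control libraries and 0, 209 and 1083 in *Stromalin* KD 1 to 3, with an adjusted p of 0.809 in edgeR and 0.0379 in DESeq2. *nemy* reached the count filter only within *Stromalin* KD and *dimm* only within control, in each case the group in which it was high. The filter thus favored a difference in either gene. Of the 11 tested genes of this list, 0 passed edgeR (0.0489% of all tested genes) and 1 (*dimm*) had an unadjusted p under 0.05 (3.23%). DESeq2 called *dimm* and *nemy* among the 10 to which it gave an adjusted p (5.46%). Their median log2 fold change was -0.19, beside 0.07 over all tested genes. *dimm* and *7B2* were the 2 genes of the list whose groups did not overlap in normalized CPM, beside 6.62% of all tested genes. The groups of a marker of another cell type did not overlap in normalized CPM either. *VGAT*, the vesicular GABA transporter, counted 112, 0 and 0 in control 1 to 3 and 1762, 500 and 1737 in *Stromalin* KD 1 to 3. The log2 fold change of *VGAT* was 4.86 (SE 3.92), which did not pass edgeR or DESeq2 (adjusted p = 0.644 in DESeq2). It too reached the count filter only within the group in which it was high. *Gad1*, which makes GABA, was at 0 in every library. Whether GABA cells were in the libraries, and any part of them in the values of *dimm* and *7B2*, was not tested.

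**Figure D4:**
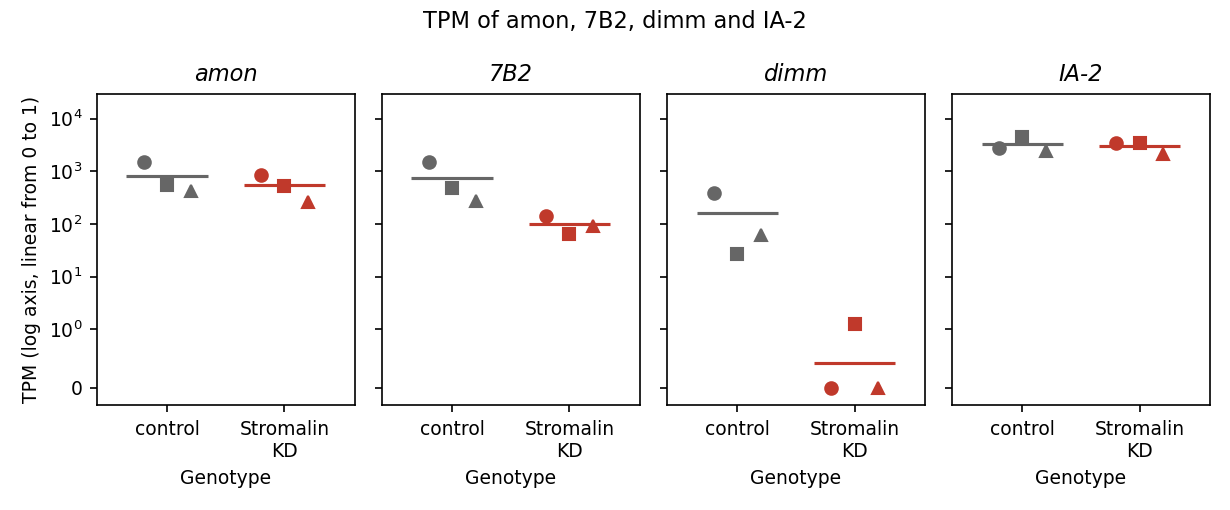
TPM (log axis, linear below 1) of *amon*, its chaperone *7B2*, the neurosecretory factor *dimm* and the vesicle protein *IA-2*, with circles, squares and triangles for replicates 1, 2 and 3 and lines for means of 3 libraries. The control points of *7B2* (278 to 1487 TPM) lie above those of *Stromalin* KD (65.6 to 139 TPM), while the groups of *amon* and *IA-2* overlap.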

How the data were processed

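RNA of 6 pools of 25 neurons was measured, 3 control and 3 *Stromalin* KD, grouped by the genotype in the labels. Libraries were made with the NuGEN Ovation SoLo kit with depletion probes. The authors deposited raw counts per gene (their processing notes name HTSeq 0.9.1 and the build BDGP6), a signal table that the authors made by dividing these counts by DESeq2 size factors, and deposited TPM per gene. A further table of the authors' own comparison (mean, log2 fold change, its error, test statistic and p-values) was not used. The sources used here give no aligner, strand setting or handling of molecular identifiers.

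From raw counts, edgeR 4.0.16 in R 4.3.3 was run with TMM factors on the 4093 genes that 2 or more of the 6 libraries held at 10 counts or more, two-sided, with Benjamini-Hochberg adjustment over all of them and a threshold of 0.05. The libraries of a genotype are labelled biological replicates, each from its own collection day. TPM was used for levels between genes. Positions and overlaps come from Ensembl release 115 of BDGP6 (17599 of 17737 gene IDs matched). DESeq2 1.42.0, limma 3.58.1 on log2(TPM + 1), other scalings and filters, a replicate block and each library left out were alternatives, and the edgeR and limma fits with a robust prior and leaving out control 2 and *Stromalin* KD 3 together were added after the data were seen. The fits were also run on simulated counts in which all genes had the same spread around their means. That run does not show how the fits perform on libraries with detection as patchy as here. The members and lists were chosen with earlier results of these data known. Every member is accounted for. Those found in 2 libraries or more are given in full, and of the other lists the genes found in all libraries are named, with exceptions stated.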

Additional observations from a re-analysis of the deposited data

How the results depend on the processing

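Of 121 refits of the 8 members' log2 fold changes, 114 kept direction and side of the threshold. Direction turned for *amon* without control 1 (0.21), for *svr* without control 3 (-0.28) and without *Stromalin* KD 2 (-0.37), for *Phm* without *Stromalin* KD 3 (-0.26) and without control 2 and *Stromalin* KD 3 together (-0.0046), and for *Pal2* without control 1 (0.14), and the cause was not tested. With 1 library left out, log2 fold changes ran from -1.43 to 0.21 for *amon*, -0.37 to 0.38 for *svr*, -0.26 to 1.88 for *Phm*, -0.68 to 0.14 for *Pal2*, -2.17 to -0.20 for *Hug*, -12.75 to -4.14 for *Nplp1*, -6.11 to -4.94 for *Proc*, -12.10 to -7.20 for *Pal1*, -3.60 to -1.87 for *7B2* and -13.93 to -6.89 for *dimm*. Leaving out control 2 and *Stromalin* KD 3 gave 0.72 for *svr*, -0.81 for *Pal2* and -0.06 for *Hug*. limma-trend on log2(TPM + 1) called 1 member, *Hug* (-4.21, adjusted p = 2.52e-07), and every other fit called 0. That call rests on the common spread given to all genes: with a robust prior in limma the adjusted p was 1.00. For *dimm*, DESeq2 gave -9.20 (adjusted p = 0.0338) and the edgeR and limma fits adjusted p values of 0.507 to 1.00.

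Over all genes, edgeR called 2, DESeq2 160, total counts only 0, no count filter 1, 10 counts in 3 libraries 0, limma-trend 4 and the robust edgeR prior 0, and the fits with each library left out 0 to 3. With the replicate number as a block 1 gene and 0 members were called, and *Hug* moved to -2.43. The numbers mark no shared day, and same-numbered libraries correlated at -0.02, -0.01 and 0.025 in their deviations from the group means. *Pal1* and *Proc* left some fits through the count filter. The members found in all libraries numbered 4, 3 at 100 counts, and 4 to 5 with 1 library left out. Precursors found in any library numbered 6, 8 at 1 count, and 4 without control 2. Places among the members by level changed in 32 of 80 alternatives, and *Hug* was first by mean TPM in both genotypes under each of them.

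With 3 libraries of 25 neurons per genotype, a gene at 0 in 1 library is not shown to be absent from its neurons, and the 3-count limit covers counting error only.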
